A study of Homo sapiens with 11 samples.

Results

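A549 and H1299 are human lung cancer lines that are often used side by side, and the comparison described here asked which genes set their RNA profiles apart. The members were the genes listed in both deposited RNA-seq tables, without the 45S ribosomal RNA precursor RNA45S5, whose mean reached 20 in at least 1 of the lines after each library had been rescaled to the same sum. This left 12447 genes, of 19805 listed in both tables and 22398 listed in either. Among the genes of the lists used below, HIST1H4B was the closest above the minimum, with a mean of 20.3 in its higher line, and GBP2 the closest under it, at 19.9. Of the 11 samples in the series, 6 were RNA-seq libraries of cells carrying a short hairpin RNA, and the rest were m6A immunoprecipitation or input samples that were not used here. Each line had 1 library of cells with a hairpin against GFP (shGFP, the control) and 2 of cells with a hairpin against METTL3 (shMETTL3 1 and 2), the enzyme subunit that writes the mRNA mark m6A. All cells were grown in the same medium with serum, and no library of a line without a hairpin was used. What 1 and 2 refer to (hairpins or repeats) and the number of separate cultures are not stated in the labels, so the p-values cover only the spread between these libraries.

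As background, A549 was derived from a lung adenocarcinoma and carries inactive STK11 and KEAP1 and a deletion at the CDKN2A locus. H1299 was derived from a lymph node metastasis of a large cell carcinoma and carries an activating NRAS mutation. KEAP1 holds the transcription factor NRF2 (gene NFE2L2) in check, and NRF2 drives genes of glutathione synthesis, NADPH supply and detoxification. CDKN2A and its neighbour CDKN2B encode brakes on the cell cycle. Epithelial cells are held together by E-cadherin and keratins, while mesenchymal cells rely on vimentin and N-cadherin.

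The libraries held 14447379 to 19966206 reads in genes for A549 and 23099169 to 26351309 for H1299. Values below are scaled values, reads rescaled so that each library sums to 4539538 over the genes in both tables, in which 1 read was worth 0.225 to 0.318. They are given in the order shGFP, shMETTL3 1, shMETTL3 2, and levels are compared between lines and never between genes. METTL3 stood at 485, 206 and 206 in A549 and 311, 138 and 120.3 in H1299, lower in both knockdown libraries of each line. Across genes, 2 libraries of the same line differed at least 2-fold in 73 to 588 genes, and 2 libraries of different lines in 4818 to 5384. The 588 genes separated A549 shMETTL3 1 from A549 shMETTL3 2, so results that rest on A549 shMETTL3 1 are also given without it. RNA45S5 took 20.5 to 25.4% of each H1299 library and 0.208 to 0.284% of each A549 library. The lines were deposited in separate tables, so line, table and library handling cannot be told apart. Among fixed markers of other cell types, the summed levels of PTPRC, CD14 and LAPTM5 were 7.20 to 9.16 in A549 and 1.15 to 2.57 in H1299, and those of PDGFRA and PDGFRB were 1.90 to 3.89 and 2.29 to 2.88. PECAM1, CDH5 and VWF summed to 15.2 to 21.9 and 9.84 to 11.5, and HBA1 and HBA2 to at most 2.16. Of 3 kept genes on the leukocyte marker list 0 were called by limma, edgeR or DESeq2, with a limma adjusted p under 0.05 (unadjusted likewise) for 2 of them, both higher in H1299 by less than 2-fold; median centring called 1 of them. The endothelial and erythroid lists had no kept member, and COL1A1, a fibrillar collagen chain, was the only kept one of the fibroblast list. It was 2.28 times higher in A549 (limma adjusted p = 0.00835), a call that was lost without H1299 shGFP (0.83) and in the shMETTL3 libraries only (0.99).

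**Figure D1:**
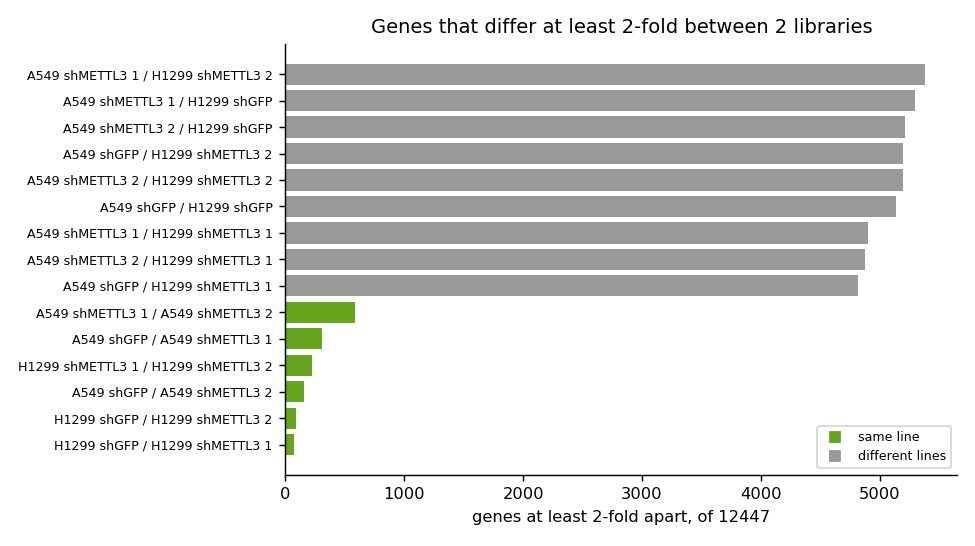
Number of genes, of 12447, at least 2-fold apart on the log2(scaled value + 1) scale between each pair of libraries. The 6 pairs within a line (green) span 73 to 588 genes and the 9 pairs across lines (grey) 4818 to 5384.

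A gene was called when limma gave an adjusted p under 0.05 and the lines differed at least 2-fold on the log2(scaled value + 1) scale, a scale that understates the change of genes with low values. By this rule 2729 genes were higher in A549, which is 21.9% of those tested, and 2311 were higher in H1299, which is 18.6%. Without the fold threshold 9461 genes had an adjusted p under 0.05, and the 3 values of one line lay wholly above those of the other in 78.8% of all genes. An exact permutation test of 3 libraries against 3 cannot give a p below 0.1. Of the called genes, 54.1% were higher in A549, with a median log2 difference over all genes of 0.05. That split depends on the scaling: it was 73.6% with RNA45S5 left in the sums and 74.3% on the values as deposited, with the median of all genes shifted by 0.37 and 0.38, and 46.1% after median centring, with a shift of -0.15. In the interaction of line and hairpin, limma gave an adjusted p under 0.05 for 0 of 12447 genes and an unadjusted p under 0.05 for 32. No other tool was run on the interaction. With 1 shGFP library in each line that test could find little, so it does not show that the hairpin acted alike in both lines. In bulk RNA, fewer cells that express a gene and less of its RNA per cell cannot be told apart.

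**Figure D2:**
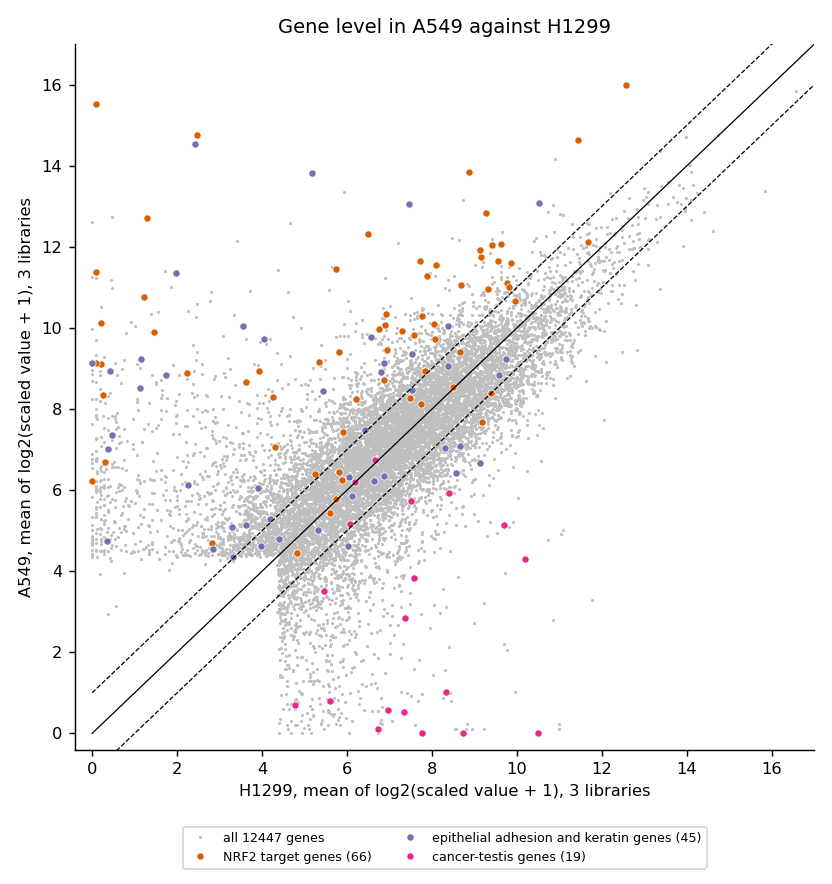
Mean log2(scaled value + 1) over 3 libraries in A549 (vertical) and H1299 (horizontal), with 1 point per gene. The solid line marks equal levels and the dashed lines a 2-fold difference; 53 of 66 NRF2 target genes were called higher in A549 and 16 of 19 cancer-testis genes higher in H1299.

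Among the lists with at least 5 kept genes, NRF2 targets had the largest share called higher in A549. Of 73 listed NRF2 target genes 66 were kept, 53 were called higher in A549 and 2 higher in H1299. These are 80.3% and 3.03%, against 21.9% and 18.6% of all genes. The median log2 difference was 2.64 against 0.05 over all genes. ALDH1A1, which oxidizes retinal and other aldehydes, stood at 48867, 52550 and 39981 in A549 and 0.229, 0 and 0 in H1299. Only 1 read was seen in H1299, and the ratio was 594300-fold (95% counting interval 106700 to 23470000). AKR1B10, an aldo-keto reductase of aldehydes and retinal, stood at 28882, 41813 and 17094 in A549 and 4.48, 4.47 and 4.56 in H1299. Its values did not overlap between the lines, and the log2 difference was 12.28 (SE 0.27, limma adjusted p = 4.26e-09). The steroid and aldehyde reductases AKR1C1, AKR1C2 and AKR1C3 differed by 11.41, 9.54 and 9.91 on the log2 scale, each higher in A549. AKR1B10 and the AKR1C genes have close copies in the genome, so reads may have been shared out among them, and the values of single copies are uncertain.

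NQO1, the quinone reductase that is a standard readout of NRF2, stood at 3067, 4098 and 2669 in A549 and 214, 216 and 199 in H1299. All 3 A549 values lay far above the 3 H1299 values, with a log2 difference of 3.94 (SE 0.15, limma adjusted p = 8.52e-08). Among the glutathione genes, chosen here for their roles after their values had been seen, the cystine transporter SLC7A11 stood at 3714, 2454 and 2426 in A549 and 69.99, 40.01 and 51.1 in H1299. Both subunits of glutamate-cysteine ligase, the first step of glutathione synthesis, were also higher in A549, GCLC by 3.17 and GCLM by 2.53 on the log2 scale. The glutathione peroxidase GPX2 stood at 899.8, 2399 and 398 in A549 and 1.38, 1.23 and 2.88 in H1299, with A549 shMETTL3 1 the highest library. The glutathione transferase GSTP1 stood at 3578, 4169.6 and 3886 in A549 and 600, 458 and 629 in H1299. The other peroxidase GPX4, which reduces lipid peroxides, ran the opposite way at 229, 204 and 183 in A549 and 585, 619 and 536 in H1299, and it was one of the 2 listed genes called higher in H1299. The regulators themselves were not 2-fold higher in A549. NFE2L2 stood at 310.02, 285 and 242 in A549 and 236, 172 and 237 in H1299, a log2 difference of 0.38 (SE 0.15, limma adjusted p = 0.0491) that did not reach 2-fold. KEAP1 stood at 349, 327 and 323 in A549 and 725, 584 and 705 in H1299, at the fold threshold with a log2 difference of -1.003. That call was lost when any of A549 shMETTL3 1, A549 shMETTL3 2, H1299 shGFP or H1299 shMETTL3 2 was left out (-0.99 to -0.94), in the shMETTL3 libraries only (-0.98), with RNA45S5 left in the sums (-0.63) and on the values as deposited (-0.62).

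NRF2 binds the antioxidant response element, and its core TGACNNNGC was looked for on both strands in the 250 bases before each gene start in RefSeq (build GRCh38.p14); the core can overlap the AP-1 site TGANTCA. It was present for 13.2% of 27305 genes with a promoter, 15.9% of 9189 kept genes matched by symbol, 32.7% of 52 matched NRF2 target genes and 29.3% of 41 matched targets called higher in A549. The share in called targets was thus no higher than in all matched targets. Windows of 5 of the 12 called targets with a match were chosen after their values had been seen. They show the element beside genes of NADPH supply and of glutathione synthesis and use. They are printed 5′ to 3′ on the strand of the gene with the core in capitals, and GCLM and GPX2 hold it on the opposite strand.
GSTP1, chr11:67583730-67583770, plus strand: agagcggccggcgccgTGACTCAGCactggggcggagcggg
ME1, chr6:83431164-83431204, minus strand: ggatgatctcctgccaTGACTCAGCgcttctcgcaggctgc
IDH1, chr2:208255190-208255230, minus strand: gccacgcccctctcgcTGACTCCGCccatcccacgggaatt
GCLM, chr1:93909440-93909480, minus strand: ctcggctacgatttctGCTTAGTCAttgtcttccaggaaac
GPX2, chr14:64942843-64942883, minus strand: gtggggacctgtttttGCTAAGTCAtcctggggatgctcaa
All 5 windows lie upstream of the gene start, outside the transcribed gene. ME1 and IDH1, which make NADPH from malate and isocitrate, were higher in A549 by 3.21 and 2.51 on the log2 scale. GSTP1 and ME1 share the same 9 letters of the core, while the gene-level differences beside them were 2.79 and 3.21. A match of letters is a description of the window, and binding was not measured.

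Genes of retinoid, vitamin D and drug metabolism also stood apart. Of 66 listed xenobiotic and retinoid genes 26 were kept, with 13 called higher in A549 and 3 in H1299 (median log2 difference 1.28). As shares these were 50% and 11.5%, against 21.9% and 18.6% of all genes. CYP24A1, the enzyme that inactivates vitamin D, stood at 2586, 2134 and 2636 in A549 and 0, 0 and 0 in H1299. No H1299 library had a read of it, so it was at least 10424-fold higher in A549, taking 3 reads over the 3 H1299 libraries as the limit. Leaving out a library without reads lowers such a bound by construction, here to 6758 without H1299 shGFP. NNMT, which methylates nicotinamide, stood at 719.95, 411 and 597 in A549 and 0, 1.45 and 0.24 in H1299. CYP26B1, which clears retinoic acid, stood at 108, 175 and 50.7 in A549 and 0.229, 0 and 0.72 in H1299, whereas the retinoic acid carrier CRABP2 was 7.07 times higher in H1299. ABCB1, the drug efflux pump P-glycoprotein, stood at 2.06, 2.54 and 3.33 in A549 and 108, 182 and 181 in H1299 and was 59.3 times higher in H1299. UGT1A7, a glucuronidation enzyme, stood at 82.3, 76.2 and 48.5 in A549 and 0, 0.224 and 0 in H1299, and 8 other UGT1A names were listed in the A549 table only. The UGT1A transcripts share their last exons, so single copies are uncertain.

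Genes of cell cycle entry differed in both directions. CDKN2A, which encodes an inhibitor of cyclin-dependent kinases, was listed in the H1299 table only, at 205, 258 and 186. CDKN2B, which encodes a related kinase inhibitor, was likewise listed there only, at 92.9, 128 and 130.1. Both tables also hold genes at 0 in all libraries, so absence from a table is not the same as a value of 0. MTAP, the neighbouring gene of methionine salvage, was listed in both tables at 60.5, 60.04 and 57.6 in A549 and 394, 348 and 359 in H1299, 6.18 times higher in H1299 (log2 difference -2.61, SE 0.10, limma adjusted p = 9.96e-08). Other neighbours, taken from the RefSeq gene order (GRCh38.p14) after their values had been seen, went either way. Beyond MTAP, KLHL9 stood at 464, 459.7 and 446 in A549 and 117, 164 and 127 in H1299, and MIR31HG, the host gene of a microRNA, at 81.8, 87.7 and 68.4 in A549 and 4.48, 7.15 and 3.84 in H1299. On the other side of CDKN2B, DMRTA1, a transcription factor gene, stood at 13.7, 17.5 and 16.9 in A549 and 20.7, 37.5 and 46.6 in H1299, with each H1299 value above each A549 value. CDKN2B-AS1, an antisense RNA that overlaps CDKN2B and so lies closer to CDKN2A than MTAP, stood at 41.2, 50.5 and 36.02 in A549 and 14.2, 18.3 and 11.5 in H1299. The use of strand in read counting is not stated in the sources used here, so an antisense gene and its partner may share reads. Of 27 listed G1/S and RB genes 20 were kept, with 4 called higher in A549 and 3 in H1299, CDKN1A and MTAP included, which is near the shares over all genes (median -0.53). CDKN1A, a further inhibitor of cyclin-dependent kinases, stood at 214, 305 and 341 in A549 and 40.7, 50.4 and 41.05 in H1299. The lowest A549 value was above the highest H1299 value, and the log2 difference was 2.65 (SE 0.18, limma adjusted p = 2.08e-06). CCND3, a D-type cyclin, stood at 541, 464 and 475 in A549 and 130.01, 139.8 and 142 in H1299, and CCNE1, cyclin E, at 225, 274 and 167 in A549 and 96.5, 98.3 and 32.4 in H1299, both higher in A549. E2F2, a cell cycle transcription factor, was 2.15 times higher in H1299, a call that was lost without A549 shMETTL3 2 (-0.90) or H1299 shGFP (-0.98).

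Epithelial adhesion and keratin genes formed the next group. Of 69 listed genes 45 were kept, with 29 called higher in A549 and 4 in H1299 (median log2 difference 1.79). The shares were 64.4% and 8.89%, against 21.9% and 18.6% of all genes. Without A549 shMETTL3 1 the counts were 25 and 5 of 43. E-cadherin (CDH1), the adherens junction protein, stood at 336, 575 and 252 in A549 and 1.15, 1.23 and 1.20 in H1299. The H1299 libraries held only a few reads each, and the log2 difference was 7.38 (SE 0.28, limma adjusted p = 7.74e-08). EPCAM, an epithelial adhesion molecule, stood at 19.7, 67.03 and 12.5 in A549 and 0.459, 0.447 and 0 in H1299, with A549 shMETTL3 1 above its 2 sister libraries. EPCAM was 109.5 times higher in A549, or 53.3 times without A549 shMETTL3 1. KRT7, a keratin of simple epithelia, stood at 14821, 13539 and 14934 in A549 and 35.1, 37.8 and 33.1 in H1299, tight within each line. KRT8 and KRT18, which pair in simple epithelia, stood 49.1 and 5.91 times higher in A549. KRT18 was still abundant in H1299, at 1565, 1586 and 1290.5. KRT19 had no read in H1299 and stood at 367, 1242 and 378 in A549, at least 2605-fold higher, or at least 1568-fold without A549 shMETTL3 1. The hair keratins KRT81 and KRT86 and their close copies KRT83 and KRT85 were all called higher in A549; these genes resemble each other, so the single values are uncertain. Not every junction gene ran this way. The tight junction gene CGN stood at 78.1, 133 and 98.4 in A549 and 438, 594 and 661 in H1299 and the cornified envelope gene PPL at 92.1, 161 and 40.7 in A549 and 351, 545 and 278 in H1299. LAMB3, a laminin chain of epithelial basement membranes, was 2.90 times higher in H1299.

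**Figure D3:**
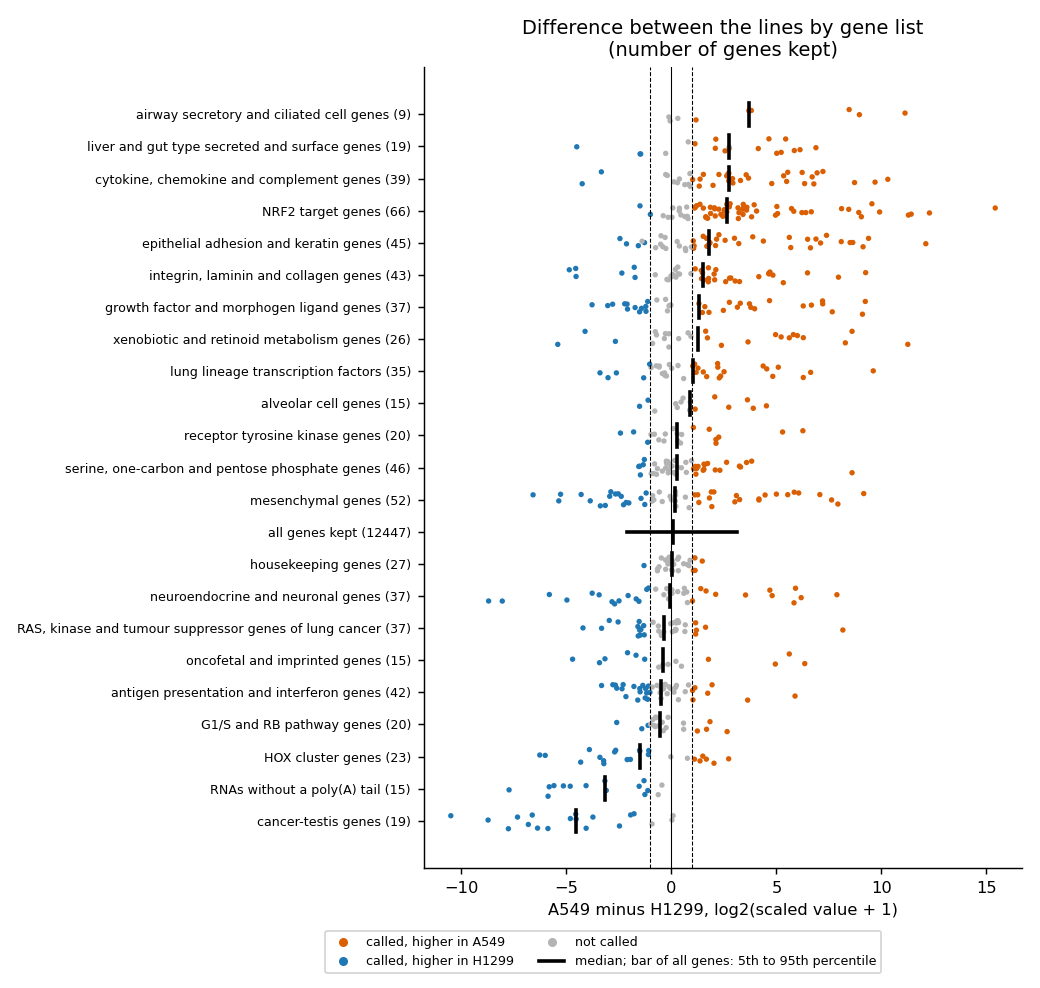
Log2 difference (A549 minus H1299) of each kept gene, by gene list, with the number kept in brackets; vertical bars are medians and the horizontal bar spans the 5th to 95th percentile of all genes. List medians run from 3.69 for airway genes to -4.56 for cancer-testis genes.

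Mesenchymal genes were split between the lines. Of 81 listed genes 52 were kept, 21 were called higher in A549 and 18 in H1299, with a median log2 difference of 0.19. Both shares, 40.4% and 34.6%, were above the 21.9% and 18.6% of all genes. Vimentin (VIM), the mesenchymal intermediate filament, stood at 6584, 6204 and 6596 in A549 and 17206, 19476 and 16327 in H1299. It was abundant in both lines and 2.73 times higher in H1299 (log2 difference -1.45, SE 0.10, limma adjusted p = 2.57e-06). N-cadherin (CDH2) stood at 174, 219 and 237 in A549 and 503, 516 and 493 in H1299, a call that was lost with RNA45S5 left in the sums (-0.90). ZEB1, a repressor of E-cadherin, stood at 41.5, 33.99 and 41.6 in A549 and 37.5, 35.3 and 44.4 in H1299. The lines overlapped, with a log2 difference near 0 whose sign changed with the scaling (SE 0.16, limma adjusted p = 0.991). Genes higher in H1299 included WNT5B, a Wnt ligand, at 1.15, 1.27 and 3.05 in A549 and 239, 300.3 and 242 in H1299. MYL9, a myosin light chain of contractile cells, was 50.2 times higher in H1299, as was CYR61, a matricellular target of YAP, at 19.8 times. NT5E, the ectonucleotidase CD73, was 14.2 times higher and the membrane protease MMP14 11.2 times. The receptor kinase AXL and the repressor ZEB2, named after their values had been seen, were higher in H1299 by 7.64 and 7.77 times. The same list also held genes higher in A549. TGFBI, a matrix protein induced by TGF-beta, stood at 6915, 4359 and 7830.4 in A549 and 20.2, 27.8 and 25.9 in H1299, and the calcium-binding protein S100A4 at 1954, 2728 and 1651 in A549 and 2.29, 4.92 and 1.44 in H1299. COL5A1, a fibrillar collagen, had no read in H1299 and was at least 831-fold higher in A549. WWTR1, which encodes the coactivator TAZ, stood at 524, 444 and 529 in A549 and 230.2, 174 and 242 in H1299, 2.32 times higher in A549.

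Lung, endodermal and epithelial lineage factors were called in both directions, more of them higher in A549. Of 61 listed factors 35 were kept, with 18 called higher in A549 and 5 in H1299, and a median log2 difference of 1.02. The shares were 51.4% and 14.3%, against 21.9% and 18.6% of all genes. ELF3, an epithelial ETS factor, stood at 798, 1259 and 577 in A549 and 0, 0.224 and 0 in H1299, with 1 read in H1299 (ratio 10830-fold, 95% counting interval 1943 to 427700). FOXA2, a pioneer factor of endoderm, had no read in H1299 and stood at 90.05, 103 and 48.5 in A549. HNF4A, a factor of liver and gut, stood at 29.8, 54.00 and 10.2 in A549 and 0, 0.224 and 0.24 in H1299. It was highest in A549 shMETTL3 1, and its log2 difference of 4.54 was 5.16 without A549 shMETTL3 2, its lowest A549 library. SPDEF, a factor of goblet cells, stood at 29.8, 140.1 and 12.8 in A549 and 0, 0.224 and 0.24 in H1299. Its A549 values ranged widely, and the log2 difference was 5.09, with 4.16 without A549 shMETTL3 1 and 5.84 without A549 shMETTL3 2. On the other side, GATA6, an endodermal and lung factor, stood at 18.6, 35.3 and 11.1 in A549 and 127, 119.7 and 128 in H1299. LHX2 and IRX3, homeobox factors, were 8.24 and 10.7 times higher in H1299. NKX2-1, the lineage factor of lung adenocarcinoma, stayed under the minimum in every library, at 0, 0.32 and 0.275 in A549 and 1.61, 3.24 and 2.16 in H1299.

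HOX genes, which set position along the body axis, divided by member. Of 39 listed genes 23 were kept, with 6 called higher in A549 and 15 in H1299 (median log2 difference -1.52). As shares these were 26.1% and 65.2%, against 21.9% and 18.6% of all genes. HOXB4 stood at 3.67, 9.53 and 4.71 in A549 and 501, 497 and 512 in H1299. Its neighbour in the cluster HOXB2 stood at 5.50, 20.97 and 4.71 in A549 and 643, 744 and 452 in H1299, with a log2 difference of -6.01 that became -6.62 without A549 shMETTL3 1. HOXA9 was 21.5 times and HOXD9 32.9 times higher in H1299, and HOXC8 9.66 times. In the opposite direction, HOXA13 stood at 21.99, 34.9 and 21.9 in A549 and 1.38, 4.69 and 3.84 in H1299 and HOXB13 at 51.8, 80.4 and 40.7 in A549 and 16.9, 12.4 and 10.1 in H1299. HOXB8 and HOXC13 were also called higher in A549, but both calls were lost without A549 shMETTL3 1 (0.95 and 0.59), the library in which both were highest. The call of HOXC13 was also lost without H1299 shGFP or H1299 shMETTL3 1, since the adjusted p missed the threshold.

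Alveolar genes were called in both directions, and genes of mucous airway cells were high in A549 to a degree that varied among its libraries. The labels name both lines as lung cancer cells. Of 33 alveolar genes 15 were kept, with 6 called higher in A549 and 2 in H1299 (median 0.87). These are 40% and 13.3%, against 21.9% and 18.6% of all genes. The surfactant protein genes SFTPC and SFTPB lay under the minimum. SFTPC, of type II cells, was near 0, at 0, 0.32 and 0.275 in A549 and 0, 0.447 and 0 in H1299. SFTPB was low, at 10.1, 5.08 and 7.21 in A549 and 4.25, 4.69 and 5.04 in H1299. SFTPA1, SFTPA2 and SFTPD were not among the genes in both tables. NAPSA, a protease of type II cells, stood at 6.19, 5.08 and 6.38 in A549 and 1.38, 1.01 and 0.96 in H1299. ABCA3, the surfactant lipid transporter, stood at 352, 504 and 377 in A549 and 952, 919 and 777 in H1299, a call that was lost with RNA45S5 left in the sums (-0.74). LAMP3, a lysosomal protein of type II cells, was 3.06 times higher in H1299. AQP3, a water and glycerol channel, stood at 124, 246 and 57.4 in A549 and 5.39, 4.02 and 3.60 in H1299. AQP3 was 32.8 times higher in A549, or 20.9 times without A549 shMETTL3 1. The cathepsin CTSH stood at 121, 168 and 141 in A549 and 8.15, 10.4 and 14.2 in H1299. Of 40 airway secretory and ciliated genes 9 were kept, with 6 called higher in A549 and 0 in H1299 by limma, edgeR or DESeq2, and 0 of the 9 were higher in H1299 at an unadjusted limma p under 0.05. By limma the shares were 66.7% and 0%, against 21.9% and 18.6% of all genes. Without A549 shMETTL3 1 the limma counts were 5 and 0 of 7. MUC5AC, the gel-forming mucin of goblet cells, stood at 2011, 8834 and 759.8 in A549 and 0, 0.224 and 0 in H1299. A549 shMETTL3 1 was the highest and A549 shMETTL3 2 the lowest, and the log2 difference of 11.12 was 10.18 without the former and 11.94 without the latter. MUC5B, another gel-forming mucin, stood at 609, 2734 and 124 in A549 and 0.918, 1.01 and 0.24 in H1299, with a log2 difference of 8.46 and 7.36 and 9.58 under the same omissions. GCNT3, which branches mucin glycans, stood at 1255, 1626 and 1058 in A549 and 2.07, 1.01 and 1.92 in H1299. Listed in the A549 table only were AGR2, a chaperone of mucin folding, at 834, 4046 and 269, and the secreted siderophore binder LCN2 at 113, 276 and 159.9. BPIFB1 and KRT4 were listed there too, but BPIFB1 stood at 0.914, 98.8 and 0.559 and so rested on 1 library. KRT4 stood at 34.1, 404 and 5.27, likewise far highest in A549 shMETTL3 1.

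Genes usually made by liver or gut were mostly higher in A549. Of 62 listed genes 19 were kept, with 13 called higher in A549 and 3 in H1299 (median 2.75). These are 68.4% and 15.8%, against 21.9% and 18.6% of all genes. Without A549 shMETTL3 1 the counts were 11 and 3 of 16. CPS1, the entry enzyme of the urea cycle, stood at 237, 276 and 148 in A549 and 2.07, 2.23 and 1.92 in H1299. The gut cadherin CDH17 stood at 55.9, 330.1 and 17.2 in A549 and 0.688, 0.447 and 0.72 in H1299, with a log2 difference of 5.44 that ranged from 4.32 without A549 shMETTL3 1 to 6.41 without A549 shMETTL3 2. VTN, the plasma adhesion protein vitronectin, stood at 146, 522 and 161 in A549 and 3.10, 4.02 and 2.16 in H1299, and the protease inhibitor SERPINA3 at 24.1, 71.8 and 17.5 in A549 and 0, 0 and 0 in H1299; both were highest in A549 shMETTL3 1, without which the log2 differences were 5.26 and 4.43 in place of 5.85 and 5.01. APOE, a lipoprotein component, ran the other way at 2.98, 1.27 and 2.22 in A549 and 55.99, 62.1 and 93.9 in H1299, 32.8 times higher in H1299. The carcinoembryonic antigen gene CEACAM6 was listed in the A549 table only, at 559, 9760 and 101, again highest in A549 shMETTL3 1.

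**Figure D4:**
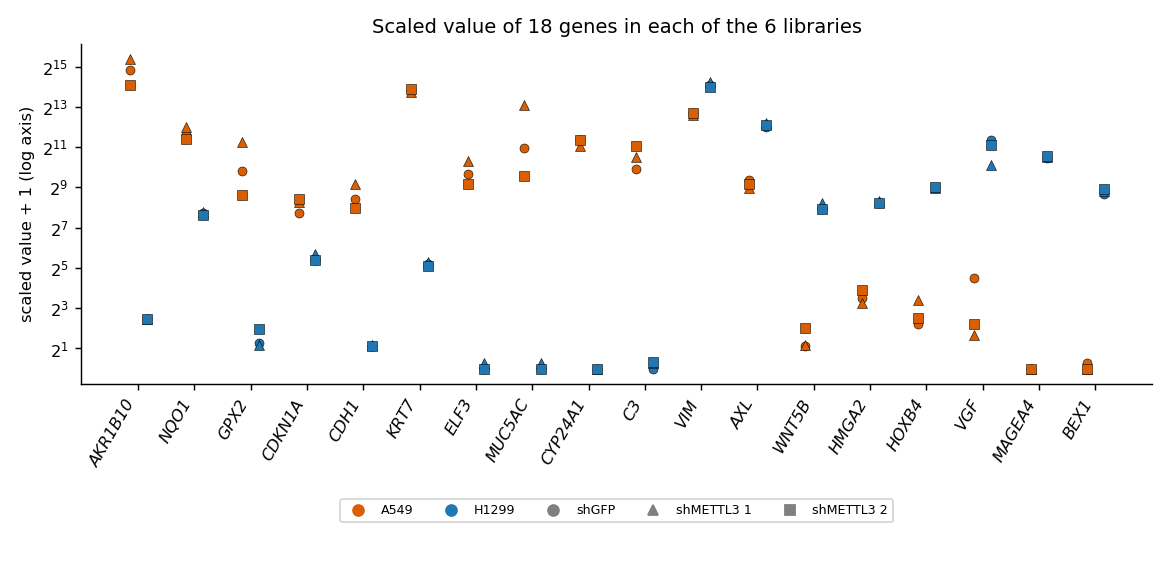
Scaled value plus 1, on a log axis, of 18 genes chosen after their values had been seen, in each A549 (orange) and H1299 (blue) library; the marker shape gives the hairpin. The A549 values of MUC5AC range from 759.8 to 8834, while the values of KRT7 and MAGEA4 lie close together within each line.

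Ligands and receptors differed in both directions. Of 79 growth factor and morphogen genes 37 were kept, with a median of 1.31. Among these, 19 were called higher in A549 (51.4%, against 21.9% of all genes) and 12 in H1299 (32.4%, against 18.6%). Ligands of the EGF receptor were among those higher in A549. EREG stood at 938, 489.9 and 950.1 in A549 and 6.54, 3.69 and 2.88 in H1299 and AREG at 355, 271 and 307 in A549 and 1.15, 2.23 and 3.12 in H1299. INHBB, an activin subunit, stood at 793, 976 and 341 in A549 and 0, 0.224 and 0 in H1299, with 1 read in H1299 and a ratio of 8819-fold (95% counting interval 1582 to 348400). RSPO3, which enhances Wnt signalling, stood at 1328, 479 and 1316 in A549 and 0.918, 0 and 1.68 in H1299, lowest in A549 shMETTL3 1. STC1, a secreted glycoprotein hormone, was 12.4 times higher in H1299 (19.4 without A549 shMETTL3 2), and the EGF family member NRG2 8.82 times. PDGFC, a platelet-derived growth factor, was 4.80 times higher in H1299. Among 20 kept receptor tyrosine kinase genes 7 were called higher in A549 (35%, against 21.9% of all genes) and 3 in H1299 (15%, against 18.6%), with a median of 0.29. EGFR stood at 135, 81.3 and 83.4 in A549 and 94.9, 86.7 and 44.4 in H1299. The values overlapped, with a log2 difference of 0.44 (SE 0.30, limma adjusted p = 0.212), which does not show that the lines express it alike. MET, the receptor of hepatocyte growth factor, stood at 1445, 1153 and 1624 in A549 and 365, 397 and 439.8 in H1299, 3.51 times higher in A549. MST1R, its relative, stood at 78.4, 132 and 63.7 in A549 and 0.229, 0 and 0.24 in H1299, and the insulin receptor INSR at 52.5, 54.00 and 47.7 in A549 and 0.918, 0 and 0.24 in H1299. MERTK and TYRO3, kinases of the AXL family, were 5.47 and 3.49 times higher in H1299.

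Genes of the RAS pathway and tumour suppressors were called in both directions. Of 38 listed RAS, kinase and tumour suppressor genes 37 were kept, with 5 called higher in A549 and 13 in H1299 (median -0.36). The shares were 13.5% and 35.1%, against 21.9% and 18.6% of all genes. NRAS stood at 601, 567 and 695 in A549 and 479, 608 and 541 in H1299, with overlapping values (log2 difference 0.19, SE 0.12). DUSP4, a phosphatase that turns off ERK, stood at 1236, 1208 and 1687 in A549 and 2.75, 4.92 and 3.84 in H1299 and was 359 times higher in A549. FOSL1, an AP-1 subunit induced by ERK, stood at 64.8, 36.5 and 70.4 in A549 and 964, 913 and 1272 in H1299, 18.3 times higher in H1299. The ERK pathway inhibitors SPRY2 and SPRY4 were 10.2 and 7.98 times higher in H1299. Among tumour suppressors, STK11, the kinase LKB1, stood at 271, 270.03 and 275 in A549 and 824, 733 and 927 in H1299. SMARCA4, an ATPase of the SWI/SNF remodeller, stood at 21.1, 18.7 and 19.4 in A549 and 62.3, 53.4 and 52.1 in H1299, while its alternative SMARCA2 stood at 22.2, 28.9 and 18.8 in A549 and 8.95, 10.2 and 10.3 in H1299; the call of SMARCA2 was lost without A549 shMETTL3 1 (0.99). NF1, a brake on RAS, stood at 701, 699.5 and 677 in A549 and 221, 242 and 211 in H1299, 3.09 times higher in A549.

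Inflammatory genes were mostly higher in A549 and several antigen presentation genes in H1299. Of 76 cytokine, chemokine and complement genes 39 were kept, with 28 called higher in A549 and 2 in H1299 (median 2.73). As shares these were 71.8% and 5.13%, against 21.9% and 18.6% of all genes. C3, the central complement component, stood at 969, 1458 and 2156 in A549 and 0, 0.224 and 0.24 in H1299, with 2 reads in H1299 (ratio 9432-fold, 95% counting interval 2611 to 77890). The neutrophil chemokines CXCL5 and CXCL8 stood at 3871, 1727 and 3024 in A549 and 1.61, 3.02 and 2.40 in H1299 for the former and 181, 197 and 272 in A549 and 0.229, 1.45 and 0 in H1299 for the latter. PTGS2, the inducible prostaglandin synthase, stood at 674, 491 and 954 in A549 and 3.10, 5.48 and 5.52 in H1299. A related chemokine, CXCL2, was 10.8 times higher in H1299 instead, at 107, 77.8 and 98.4 in A549 and 1387, 1084 and 580.2 in H1299. Of 63 antigen presentation and interferon genes 42 were kept, with 7 called higher in A549 and 18 in H1299 (median -0.52). The shares were 16.7% and 42.9%, against 21.9% and 18.6% of all genes. With RNA45S5 left in the sums 11 members of this list were called higher in H1299. HLA-B, a class I presenting chain, stood at 214, 250.3 and 257 in A549 and 1369.5, 1594 and 1632 in H1299, 6.37 times higher in H1299. B2M, the chain that all class I molecules share, ran the other way at 1528, 1890.2 and 1825 in A549 and 662, 977 and 795 in H1299, and its call was lost without H1299 shGFP (0.98) or after median centring (0.97). HLA genes are highly variable and alike, so reads may be shared or lost, and their single values are uncertain. ISG15 and IFITM3, both induced by interferon, were 7.25 and 9.86 times higher in H1299. OAS1, which senses double-stranded RNA, stood at 76.1, 127 and 30.8 in A549 and 0, 0.224 and 0.24 in H1299 and was higher in A549. HLA-DMB, of the class II pathway, stood at 41.02, 194 and 12.5 in A549 and 2.52, 3.02 and 3.12 in H1299, with a log2 difference of 3.63 with 2.62 without A549 shMETTL3 1 and 4.55 without A549 shMETTL3 2.

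Genes that are normally restricted to the germline marked H1299. Of 72 cancer-testis genes 19 were kept, with 0 called higher in A549 and 16 in H1299 (median -4.56). These are 0% and 84.2%, against 21.9% and 18.6% of all genes. Another 7 were listed in the H1299 table only. By edgeR and DESeq2 0 were called higher in A549 as well, and 0 of the 19 were higher in A549 at an unadjusted limma p under 0.05. LIN28A, an RNA-binding gene of germ and stem cells that lay under the minimum mean, was called higher in A549 in settings in which it passed, at a minimum mean of 5, with RNA45S5 left in the sums, as deposited, in the shMETTL3 libraries only and without A549 shGFP or A549 shMETTL3 1; with no minimum mean 3 members were called there. MAGEA4, an X-linked MAGE antigen, had no read in A549 and stood at 1385, 1450.5 and 1518 in H1299, at least 5374-fold higher. The MAGEA family had 10 kept members, all called higher in H1299. All 6 kept GAGE genes were higher in H1299, and another 16 GAGE names were listed in the H1299 table only, with means of 269 to 685. GAGE and MAGEA copies are nearly identical, so reads may have been split among them and single values are uncertain. RHOXF2, a homeobox gene of the testis, stood at 0, 0 and 0.275 in A549 and 1970.3, 2202 and 1884 in H1299, and its copy RHOXF2B cannot be separated from it with certainty. TDRD12 and TDRD9, which act in the piRNA pathway that silences transposons, stood at 0.688, 2.22 and 0.559 in A549 and 1009, 1002 and 952 in H1299 and at 0, 0.632 and 0 in A549 and 427, 543 and 393 in H1299. CTAG1A and CTAG1B, near-identical copies that encode NY-ESO-1, were listed in the H1299 table only, CTAG1A at 484, 416 and 653. PRAME, a melanoma antigen named after its values had been seen, was one of 3 kept members not called, at 110.4, 105 and 102 in A549 and 90.2, 96.1 and 115 in H1299.

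Neuronal and neuroendocrine genes were split. Of 83 listed genes 37 were kept, with 11 called higher in A549 and 14 in H1299 (median -0.06). These are 29.7% and 37.8%, against 21.9% and 18.6% of all genes. CHGB, a granin of secretory granules, stood at 50.4, 57.8 and 48.8 in A549 and 107, 93.4 and 141 in H1299; its call was lost without H1299 shMETTL3 2 (-0.93) and with RNA45S5 left in the sums (-0.72). CHGA stayed under the minimum at 7.11, 7.30 and 7.21 in A549 and 0.459, 0.224 and 0.72 in H1299. SYP, a synaptic vesicle protein, stood at 37.1, 29.5 and 34.1 in A549 and 28.1, 26.6 and 47.5 in H1299, with overlapping values and a difference whose sign changed between settings. NEUROD1 was not among the genes in both tables. VGF, a precursor of secreted neuropeptides, stood at 21.5, 2.22 and 3.60 in A549 and 2615, 1106 and 2164 in H1299, and its log2 difference of -8.05 became -8.90 without A549 shGFP. BEX1, a signalling adaptor of neurons, stood at 0.226, 0 and 0 in A549 and 402, 458 and 480.1 in H1299, with 1 read in A549 (ratio 4955-fold, 95% counting interval 889 to 195800). POU3F2, a neural transcription factor, was 80.9 times higher in H1299, and 202 times without A549 shMETTL3 1. In A549, the cell adhesion genes NRCAM and L1CAM stood at 537, 596 and 425 and at 29.3, 49.9 and 31.6, which was 434 and 78.4 times higher; without H1299 shMETTL3 2 the latter was 163 times higher. NEFL, a neurofilament, stood at 67.8, 96.9 and 165 in A549 and 0.229, 0.224 and 0.96 in H1299.

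Fetal and imprinted genes were divided likewise. Of 37 listed genes 15 were kept, with 4 called higher in A549 and 6 in H1299 (median -0.40). As shares these were 26.7% and 40%, against 21.9% and 18.6% of all genes. HMGA2, a chromatin protein of embryonic tissue, stood at 10.3, 8.57 and 13.9 in A549 and 300.2, 318 and 297 in H1299 and was 27.9 times higher in H1299. The related HMGA1 was 4.22 times and the RNA-binding gene IGF2BP2 11.4 times higher in H1299. The imprinted RNA H19 stood at 39.2, 74.98 and 16.4 in A549 and 0.459, 0 and 0.24 in H1299. SNRPN, an imprinted splicing gene, stood at 77.2, 103 and 98.6 in A549 and 0.229, 0.224 and 0 in H1299, and MEST, another imprinted gene, at 49.3, 38.4 and 72.04 in A549 and 0, 0 and 0.24 in H1299.

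Genes of basement membrane collagen were higher in A549. Of 71 integrin, laminin and collagen genes 43 were kept, with 25 called higher in A549 and 6 in H1299 (median 1.48). COL4A1 and COL4A2, the main chains of type IV collagen, stood at 477, 199.5 and 649.8 in A549 and 0.918, 0.447 and 0.48 in H1299 for COL4A1 and 1278, 793 and 1444 in A549 and 0.688, 0.447 and 1.68 in H1299 for COL4A2. All 6 genes for chains of type IV collagen were kept and called higher in A549. COL4A3 stood at 32.3, 125 and 16.4 in A549 and 0.688, 1.01 and 0.24 in H1299, with a log2 difference of 4.69 with 3.90 without A549 shMETTL3 1 and 5.32 without A549 shMETTL3 2. SPOCK1, a proteoglycan, stood at 64.6, 14.6 and 76.5 in A549 and 0.229, 0 and 0 in H1299. Its log2 difference was 5.33, and 6.06 without A549 shMETTL3 1, its lowest A549 library. ITGA4, the alpha-4 integrin, stood at 5.96, 6.35 and 13.3 in A549 and 258, 259 and 266 in H1299 and was 30.6 times higher in H1299. LAMA2, a laminin chain, was 33.4 times and NID1, a laminin linker, 5.24 times higher in H1299. FLNC, a filamin that crosslinks actin, was among the 15 genes with the largest differences towards H1299, at 10.3, 8.26 and 7.76 in A549 and 3924, 3554 and 3029 in H1299. The calcium-binding protein gene S100A6 had no read in H1299 and stood at 6402, 7967 and 4868 in A549, at least 26737-fold higher. NPAS2, a partner of the circadian clock, also had none there and stood at 948, 1198 and 909. CA12, a carbonic anhydrase of the cell surface, stood at 2440.3, 2499 and 2037 in A549 and 0.459, 0 and 0.72 in H1299.

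Genes of serine, one-carbon and pentose phosphate metabolism were called in both directions. Of 56 serine, one-carbon and pentose phosphate genes 46 were kept, with 18 called higher in A549 (39.1%, against 21.9% of all genes) and 5 in H1299 (10.9%, against 18.6%), and a median of 0.25. The amino acid transporter SLC7A5 stood at 21935, 19864 and 14482 in A549 and 2643, 1566 and 1625 in H1299, and its partner SLC3A2 was 6.25 times higher in A549. ASS1, an enzyme of arginine synthesis, stood at 85.2, 92.4 and 129.9 in A549 and 6.999, 4.25 and 7.92 in H1299, whereas the next enzyme ASL stood at 22.2, 44.5 and 25.5 in A549 and 90.6, 86.4 and 80.2 in H1299 and was 2.79 times higher in H1299. TYMS, thymidylate synthase, was 2.55 times higher in H1299, a call that was lost with RNA45S5 left in the sums (-0.97). All 27 housekeeping genes were kept, with a median of 0.04. Among these, 4 were called higher in A549 (14.8%, against 21.9% of all genes) and 1 in H1299 (3.70%, against 18.6%). TFRC, the transferrin receptor, stood at 1628, 1146 and 1814 in A549 and 813, 654 and 718 in H1299, and the lysosomal enzyme GUSB at 57.7, 75.9 and 40.5 in A549 and 151, 164 and 111 in H1299; these counts were 7 and 0 with RNA45S5 left in the sums, and 1 in A549 after median centring.

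Transcripts that lack a poly(A) tail moved with the line. Of 40 listed genes 15 were kept, with 0 called higher in A549 and 13 in H1299 (median -3.17). As shares these were 0% and 86.7%, against 21.9% and 18.6% of all genes. By edgeR and DESeq2 0 were called higher in A549 too, and 0 of the 15 were higher in A549 at an unadjusted limma p under 0.05. RMRP, the RNA of a mitochondrial and nucleolar RNase, stood at 3.89, 2.54 and 3.05 in A549 and 763, 844 and 1038 in H1299, and RPPH1, the RNA of RNase P, at 2.06, 1.59 and 4.43 in A549 and 201, 186 and 229 in H1299. HIST1H1E, a replication-dependent histone gene, stood at 1.15, 0 and 0.559 in A549 and 89.04, 92.1 and 70.8 in H1299 and HIST1H4E at 0.688, 1.27 and 1.67 in A549 and 98.1, 124 and 92.2 in H1299. The share of RNA45S5 given above moved in the same direction. The part of either in the gene differences between the lines was not tested.

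Genes listed in one table only were not part of the comparison. At a mean of at least 20, 101 of 1483 genes listed in the A549 table only and 53 of 1084 listed in the H1299 table only remained. ALDH3A1, an aldehyde dehydrogenase on the NRF2 list, stood at 6473, 7635 and 4790 in A549. GATA4, a factor of heart and endoderm, stood at 30.2, 31.8 and 21.3 there. In the H1299 table, the germline gene PASD1 stood at 685, 777 and 746 and the interleukin-13 decoy receptor IL13RA2 at 189.9, 289.5 and 159.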

How the data were processed

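RNA-seq of 3 A549 and 3 H1299 libraries was compared. For each line the authors deposited a table of signal values, which turned out on inspection to be whole reads after division by a constant of the library (3.8, 2.8 and 3.2 in A549, and 5.1, 4.5 and 5 in H1299). Whole reads came out for 100% of A549 values. In H1299, with 1 decimal, 100% of values fitted too, where 44.7 to 50.8% of the possible low values would fit by rounding alone. The basis of these constants is not stated in the labels. Libraries were prepared with a stranded mRNA kit, per the labels' protocols, and TopHat, Bowtie and hg19 are named in the submitters' processing notes without versions. Not given in the sources used here were the read counter, the annotation and the use of strand. In the A549 table the shMETTL3 columns carry the name shMEL, so their number gave the sample.

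Genes in both tables without RNA45S5 were scaled to equal sums, and those with a mean of at least 20 in 1 line were kept. Names turned into dates (27 and 25) or repeated (2 and 1) were left out. Of the kept genes, 91.3% have a current or older human symbol. Log2(scaled value + 1) was fitted with limma 3.58.1 (lmFit, and eBayes with intensity trend, R 4.3.3) on line over all 6 libraries, with Benjamini-Hochberg adjustment over all genes; a call also needed a log2 difference of at least 1. The deposited values are neither FPKM nor counts but reads divided by a constant of the library, and this test was kept as the main one. Since each line comes from its own table, this test runs across tables. The deposited values, RNA45S5 included, summed to 5.09e+06 to 5.25e+06 in all 6 libraries. Intervals at 95% and the limit of 3 reads cover counting error only. edgeR 4.0.16 and DESeq2 1.42.0 on the recovered reads, other scalings, minimum means, a pseudocount of 0.1, fold thresholds, the hairpin as a term and leaving out each library were the alternatives. The code was tested on simulated data. Same-labelled libraries of the 2 lines deviated together (r across genes 0.239 for shGFP, 0.241 for shMETTL3 1 and 0.266 for shMETTL3 2, against -0.203 to -0.051 for other pairs), so the label was also used as a replicate block. Deviations were taken from the mean of each line, which by construction pushes the other pairs under 0 when same-labelled pairs lie above it. Named genes were up to 6 called members of each list in each direction, the 15 largest non-overlapping differences in each direction and a short list of standard genes; others are said to be chosen later. The members and lists were chosen with earlier results of these data known. m6A peak lists were not used here, since no annotation of their build was at hand. Some genes and 1 gene list are not reported here.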

Additional observations from a re-analysis of the deposited data

How the results depend on the processing

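With the library label as a replicate block the counts were 2734 higher in A549 and 2313 in H1299, and the pairing changed no call of a named gene. Leaving out each library gave 2639 to 2808 genes higher in A549 and 2288 to 2335 in H1299. A minimum mean of 100 gave 1662 and 1505, a 4-fold threshold 1106 and 715, and no fold threshold 4959 and 4502, since the tested set or the threshold changed by construction. With RNA45S5 left in the sums the counts were 4004 and 1433, and on the values as deposited 4069 and 1410. edgeR called 2618 and 2477, and DESeq2 2635 and 2453. ZEB1, near 0, changed sign with RNA45S5 left in the sums (0.36), on the values as deposited (0.38), without A549 shMETTL3 1 (0.092) and without H1299 shMETTL3 2 (0.091), and without 1 library it lay between -0.070 and 0.092. SYP, at 0.02, changed sign after median centring (-0.14), with TMM factors (-0.062), in the shMETTL3 libraries only (-0.16), without A549 shGFP (-0.051), without H1299 shGFP (-0.088), without H1299 shMETTL3 1 (-0.13), in edgeR (-0.071) and in DESeq2 (-0.065), with a highest value of 0.28 without H1299 shMETTL3 2; the cause was not tested for either gene. METTL3 was called higher in A549 without H1299 shGFP (1.08), with RNA45S5 left in the sums (1.04) and as deposited (1.05). Of 246 named genes kept, 12 calls were lost with RNA45S5 left in the sums, 10 after median centring, 2 with TMM factors and 1 each in edgeR and DESeq2 (DDX58 in both). Reads recovered from H1299 values of 1 decimal limit the precision of its lowest values.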
